A study of Homo sapiens with 12 samples.

Results

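The T cell receptor complex and recombination genes were examined as 10 rows of the deposited expression table, chosen by gene name: CD3D, CD3E, CD3G, CD247, TRAC, TRBC1, TRBC2, PTCRA, RAG1 and DNTT. The table held 60671 genes, and all 10 names were found once each. Values were in FPKM, fragment counts scaled to the length of the transcript and to the number of mapped fragments in the library, so that levels of different genes can be set side by side.

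The study asked how overexpression of PTPN21, a tyrosine phosphatase with a FERM domain, alters the response of leukaemia cells to vincristine (VCR), a drug that blocks microtubule assembly. The 12 RNA-seq libraries formed 4 groups of 3, given here as NC+DMSO and NC+VCR for control cells and as PTPN21+DMSO and PTPN21+VCR for overexpressing cells. All were labelled as Jurkat, a human T cell acute lymphoblastic leukaemia line, and were collected after 48 h with VCR or its solvent DMSO. The labels did not say whether the 3 libraries of a group came from separate cultures, so p-values measured the spread between libraries. The NC cells were labelled WT in genotype, while the study's methods describe a GFP vector control. PTPN21 carried a FLAG tag and was driven by the viral SFFV promoter of a lentiviral vector. The VCR dose of these libraries was not given in the sources used here.

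A T cell recognises antigen through a receptor made of an alpha and a beta chain, or a gamma and a delta chain, and this receptor reaches the cell surface only together with the CD3 delta, epsilon and gamma chains and the zeta chain, CD247. The variable parts of the receptor genes are put together by RAG1 and RAG2, the recombinase that cuts DNA between gene segments, and DNTT adds untemplated nucleotides at the joins. In immature cells the invariant chain PTCRA pairs with the beta chain before an alpha chain exists. Jurkat cells are widely used as a model of signalling through this receptor, which they are known to carry.

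Apart from CD3D, the CD3 and receptor chain genes had levels that went against the cell type label. CD3D alone was high, at a mean of 110.4 FPKM over 12 libraries, and ranked 712 by mean among the 60671 genes. TRBC1 had a mean of 1.81 FPKM and TRAC a mean of 0.991 FPKM. The other 7 genes had means between 0 and 0.254 FPKM. CD3D contributed between 95.4% and 99.1% of the summed FPKM of the 10 genes in a library. CD247 and DNTT were listed at 0 in all 12 libraries, PTCRA in 11, CD3E and TRBC2 in 9, and CD3G in 3. For comparison, 108 genes that cells use generally had no 0 in any library, and their lowest value was 1.19 FPKM. The groups are therefore named by their labels throughout, and the libraries are called libraries labelled Jurkat.

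**Figure D1:**
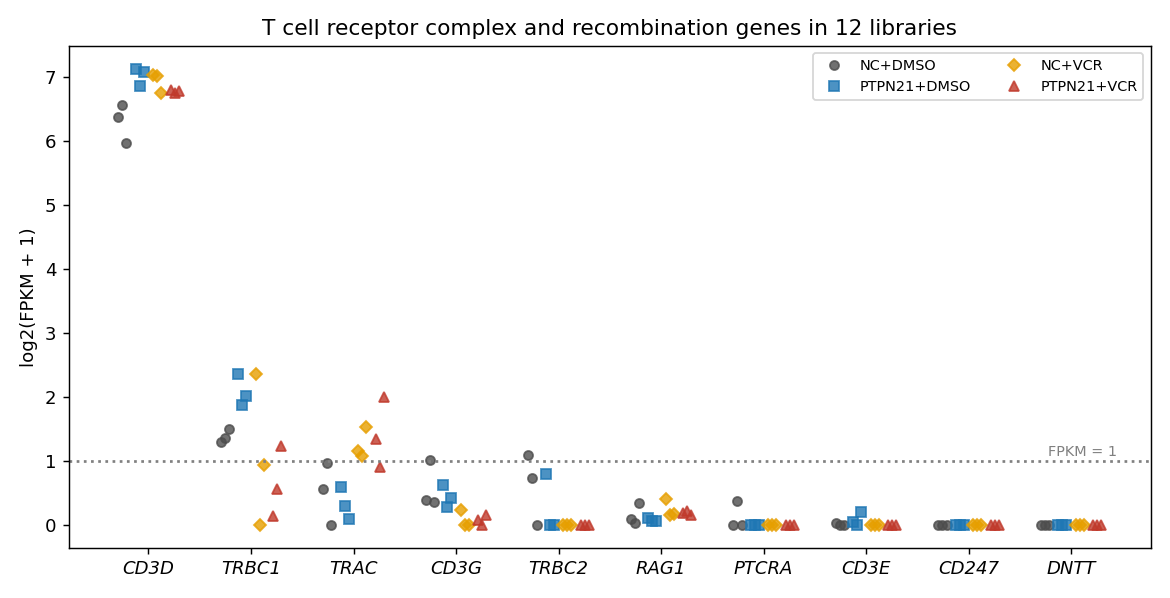
Level of each of the 10 genes in each of the 12 libraries, as log2(FPKM + 1) on the vertical axis, with 1 symbol per library and the 4 groups told apart by colour and shape. CD3D stood between 61.8 and 139.7 FPKM, whereas no other gene exceeded 4.15 FPKM in any library.

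The 2 promoters at the ends of this range are shown because CD3D was the gene with the highest level and CD247 was at 0 throughout. Both windows run 5′ to 3′ on the gene's strand, from 250 bases before the annotated start to 50 bases into the transcript. They come from RefSeq on GRCh38.p14, at chr11:118342656-118342955 (minus strand) for CD3D and chr1:167518480-167518779 (minus strand) for CD247. Capitals mark the matches of the 4 motifs listed after the sequences.
CD3D: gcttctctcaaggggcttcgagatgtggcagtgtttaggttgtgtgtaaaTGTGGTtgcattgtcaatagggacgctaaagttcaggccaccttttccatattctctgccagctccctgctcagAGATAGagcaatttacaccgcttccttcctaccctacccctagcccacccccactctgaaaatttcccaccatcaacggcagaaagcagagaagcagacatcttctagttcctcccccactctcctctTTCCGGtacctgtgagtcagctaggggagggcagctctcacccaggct
CD247: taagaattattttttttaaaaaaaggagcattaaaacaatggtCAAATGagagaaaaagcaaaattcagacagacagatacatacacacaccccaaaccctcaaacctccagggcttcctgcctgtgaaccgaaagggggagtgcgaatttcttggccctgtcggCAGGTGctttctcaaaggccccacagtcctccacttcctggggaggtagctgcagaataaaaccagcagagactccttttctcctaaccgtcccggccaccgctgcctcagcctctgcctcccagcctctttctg

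The motifs were searched on both strands: the GATA motif as AGATAA, with T also allowed as its first and G as its last letter, the E-box as CANNTG, the RUNX motif as TGTGGT, and the ETS motif as CCGGAA. None of these motifs contains another. The CD3D window held 1 GATA match, 1 RUNX match and 1 ETS match, and no E-box. The CD247 window held 2 E-boxes and no other match. Among 35116 RefSeq promoter windows of 300 bases, 25.0% held the GATA motif, 68.7% the E-box, 13.1% the RUNX motif and 17.2% the ETS motif. RefSeq windows were found for 5 of the 10 genes. The PTCRA window held 4 E-boxes, the RAG1 window 1, and the DNTT window 3 with 1 GATA match. Matches of this kind are common, and none was taken as a binding site.

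CD3D encodes the CD3 delta chain and lies on GRCh38 chromosome 11 between positions 118338954 and 118342744 on the minus strand (ENSG00000167286). In NC+DMSO it was 82.3, 93.8 and 61.8 FPKM in the 3 libraries. In PTPN21+DMSO it was 139.7, 115.7 and 135.1 FPKM. In NC+VCR it was 131.2, 129.3 and 107.3 FPKM, and in PTPN21+VCR 110.9, 107.2 and 110.1 FPKM. The 3 NC+DMSO libraries were below every other library, and the remaining 9 lay between 107.2 and 139.7 FPKM.

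The other CD3 genes did not share this level. CD3G, the gamma chain gene (ENSG00000160654), starts 1600 bases from the CD3D start and is read in the opposite direction. Its values were 0.309, 1.03 and 0.280 FPKM in NC+DMSO and 0.532, 0.220 and 0.334 FPKM in PTPN21+DMSO. Under VCR they were 0.173, 0 and 0 FPKM in NC and 0.0543, 0 and 0.114 FPKM in PTPN21 cells. All 6 VCR libraries were below all 6 DMSO libraries. CD3E, the epsilon chain gene (ENSG00000198851), lies 22779 bases from CD3D and was above 0 in 3 libraries, with a highest value of 0.146 FPKM. CD247, the zeta chain gene (ENSG00000198821), on chromosome 1, was at 0 in every library.

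Levels around CD3D varied gene by gene. UBE4A, a ubiquitin ligase gene 16841 bases from CD3D, had a mean of 3.56 FPKM, ATP5MG, an ATP synthase subunit gene, a mean of 146.5 FPKM, and KMT2A, a histone methyltransferase gene, a mean of 5.90 FPKM. On the other side, MPZL2 and MPZL3 had means of 0.0300 and 0.225 FPKM. CD3D and ATP5MG were thus the only 2 of the 8 named genes around this locus with means above 100 FPKM.

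**Figure D2:**
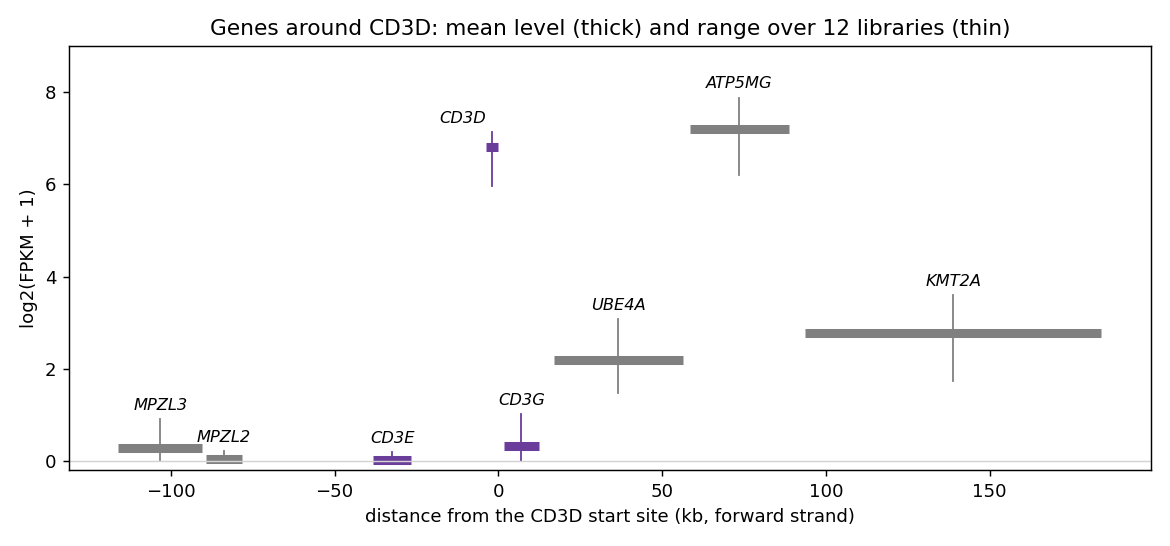
Mean level as log2(FPKM + 1), drawn as a thick bar over each gene's extent in kilobases from the CD3D start, with the range over 12 libraries as a thin line; the 3 CD3 genes are in purple and their neighbours in grey. CD3D and ATP5MG stood high, and CD3E and CD3G stayed near 0.

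The receptor chains were near the lower limit of the table. TRAC, the alpha constant region (ENSG00000277734, chromosome 14, 22547506 to 22552154, plus strand), was 0.477, 0.955 and 0 FPKM in NC+DMSO and 0.508, 0.224 and 0.0643 FPKM in PTPN21+DMSO. It was 1.23, 1.11 and 1.90 FPKM in NC+VCR and 1.53, 0.873 and 3.01 FPKM in PTPN21+VCR. Each VCR group was above the DMSO group of the same cells in all 3 libraries. TRAC, at a mean of 0.991 FPKM, was just outside the minimum mean of 1 FPKM used for the fit.

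TRBC1 and TRBC2 encode near-identical beta constant regions on chromosome 7 and are 7673 bases apart. The first 60 bases of each, the start of the first exon, are shown because this is where the 2 transcripts of GENCODE release 29 (GRCh38, plus strand) first differ. They lie at chr7:142791694-142791753 and chr7:142801041-142801100, and capitals mark the differing bases.
TRBC1: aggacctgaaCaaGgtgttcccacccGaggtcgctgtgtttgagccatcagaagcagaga
TRBC2: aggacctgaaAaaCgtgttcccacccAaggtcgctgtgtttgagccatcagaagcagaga

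Counted from 1 at the first base of the exon, with the TRBC1 base first, the differences are C11A, G14C and G27A. The first exons, of 387 bases, were 98.2% identical, and the longest identical run was 173 bases. Reads could therefore be split between the 2 genes in ways that depend on how the authors counted them, and the division between TRBC1 and TRBC2 is uncertain. TRBC1 (ENSG00000211751) was 1.45, 1.57 and 1.83 FPKM in NC+DMSO and 4.11, 2.68 and 3.05 FPKM in PTPN21+DMSO. It was 4.15, 0 and 0.922 FPKM in NC+VCR and 0.0958, 0.478 and 1.35 FPKM in PTPN21+VCR. The NC+VCR libraries spanned the whole range of the other groups. TRBC2 (ENSG00000211772) was above 0 in 3 DMSO libraries, at 1.13 and 0.664 FPKM in NC+DMSO and 0.730 FPKM in PTPN21+DMSO, and at 0 in all 6 VCR libraries.

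The rearranging parts of the receptor loci gave little signal. Of 220 variable, diversity and joining segments in the table, 18 were above 0 in at least 1 library and none had a mean of 1 FPKM. The highest mean was 0.578 FPKM, for TRBV20OR9-2, a segment copy outside the beta locus. The delta constant region TRDC, which is not among the 10 genes and lies 81719 bases before TRAC, was higher than TRAC, with a mean of 9.65 FPKM. The gamma constant regions TRGC1 and TRGC2 were at 0 in every library.

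The recombination genes were at or near 0. RAG1 (ENSG00000166349, chromosome 11) was above 0 in all 12 libraries but at no more than 0.324 FPKM. Its values were 0.0658, 0.0210 and 0.265 FPKM in NC+DMSO and 0.0797, 0.0407 and 0.0386 FPKM in PTPN21+DMSO. They were 0.324, 0.108 and 0.121 FPKM in NC+VCR and 0.141, 0.157 and 0.110 FPKM in PTPN21+VCR. RAG1 overlaps RAG2 on the opposite strand, and use of strand in counting was not given in the sources used here, so reads of the 2 genes may not be separable. RAG2 had a mean of 0.0721 FPKM. DNTT (ENSG00000107447, chromosome 10) was at 0 throughout, and PTCRA (ENSG00000171611, chromosome 6) was at 0.292 FPKM in 1 NC+DMSO library and at 0 in the other 11.

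Steps in the low values of single-exon genes placed the depth at about 28750000 to 47600000 reads a library, within a preset range of depths searched. Only 38.9% to 45.8% of the values tested lay within 0.1 of a whole read, where 20% would by chance at a step fixed in advance. The step was instead the best-scoring one of the search, so these depths are approximate. The PTPN21 libraries, at 40850000 to 47600000 reads, were all deeper than the NC libraries, at 28750000 to 35600000. On this estimate, and with all annotated exonic bases counted, 1 read was worth 0.0276 to 0.0457 FPKM for TRBC1. A value of 0 in a library was taken to allow an expected count of up to 3 reads, a convention and not an absolute limit. An expected count of 3 reads would be at most 0.0258 FPKM of CD247 and 0.0528 FPKM of DNTT. These limits cover counting error only.

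The wider lists of genes around the receptor were uneven. Of 13 T lineage markers, 11 stayed below 1 FPKM in every library and 8 of these were at 0 throughout, among them CD5, CD6 and CD28. PTPRC, the leukocyte phosphatase CD45, and CD99 were the exceptions, with means of 23.8 and 18.9 FPKM. LCK, the kinase that starts receptor signalling, was at 0 in all 12 libraries, while FYN, its relative, had a mean of 21.1 FPKM. Of 41 proximal signalling genes, 17 had a mean of at least 1 FPKM. The factors GATA3 and BCL11B, known for T cell development, had means of 0.0327 and 0.00101 FPKM, and 16 of 26 listed regulators reached a mean of 1 FPKM. End joining genes, which repair DNA breaks in all cells, were present, with 11 of 13 recombination partners at a mean of at least 1 FPKM.

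Genes of other lineages were present in the same libraries. Of 6 erythroid markers, 5 had a mean of at least 1 FPKM, led by the fetal globin HBG1 at 188 to 709 FPKM and the alpha globin HBA1 at 49.4 to 190 FPKM. The summed erythroid level ranged from 285 to 1037 FPKM and the summed T lineage level from 25.5 to 51.7 FPKM, of which CD99 and PTPRC made up nearly all. The adult globin HBB had a mean of 0.194 FPKM. Of 8 myeloid markers, 4 reached a mean of 1 FPKM, CD33, SPI1, LYZ and ITGAM. Of 6 NK cell markers 1 did, NKG7, and of 8 B cell markers none did. In bulk RNA, fewer cells of a type and less RNA per cell cannot be told apart.

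**Figure D3:**
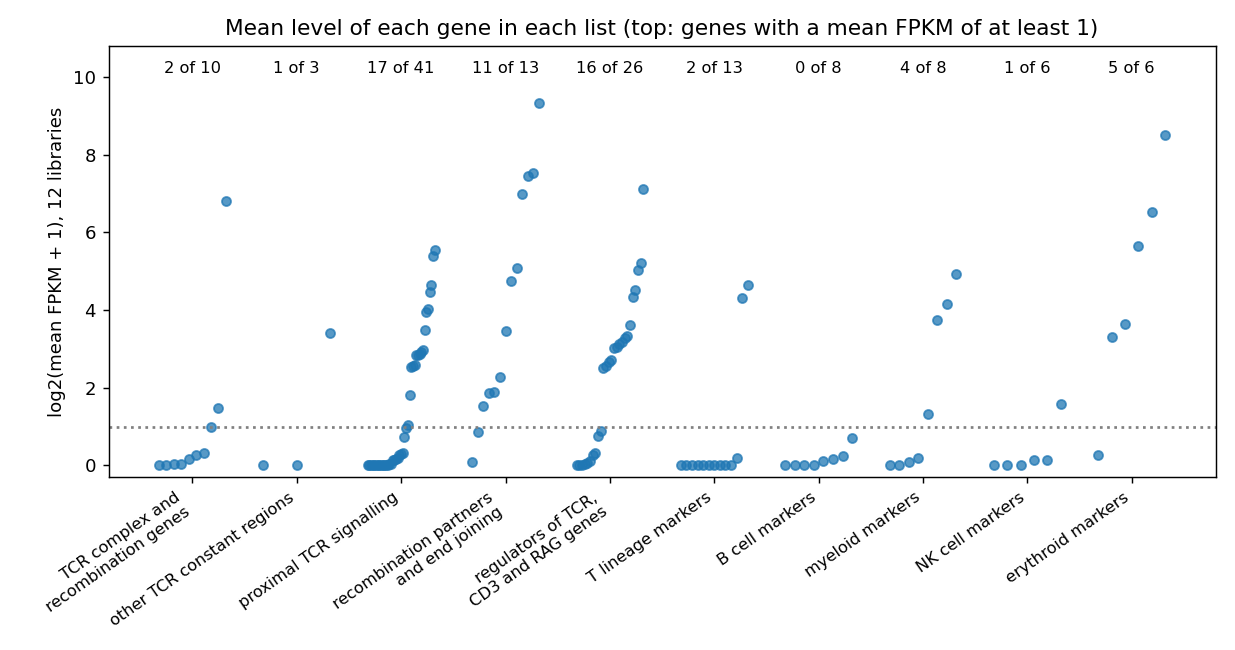
Each point is 1 gene, at its mean over 12 libraries as log2(mean FPKM + 1), in 10 lists along the horizontal axis, with the dotted line at 1 FPKM. Above each list stands its number of genes with a mean of at least 1 FPKM. This was 2 of 10 for the receptor and recombination genes and 2 of 13 for T lineage markers. It was 0 of 8 for B cell markers, 5 of 6 for erythroid markers and 11 of 13 for recombination partners and end joining genes.

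The target of the overexpression followed its labels. PTPN21 was between 0.0212 and 0.569 FPKM in the 6 NC libraries and between 4.34 and 10.5 FPKM in the 6 PTPN21 libraries.

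Differences between groups were fitted with limma on log2(FPKM + 1) over the 11591 genes with a mean of at least 1 FPKM, and an adjusted p under 0.05 (Benjamini-Hochberg) counted as a call. CD3D and TRBC1 were the 2 of the 10 genes that passed this minimum. The median difference over all genes tested was -0.14 for PTPN21+DMSO against NC+DMSO, -0.36 for NC+VCR against NC+DMSO and -0.17 for PTPN21+VCR against PTPN21+DMSO, and differences are also given relative to it. Differences on this scale understate those of low genes such as TRBC1. For the 8 genes below the minimum the FPKM values above stand in place of a fit, with an exact permutation test where needed, for which 3 against 3 libraries cannot give a p below 0.1.

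**Figure D4:**
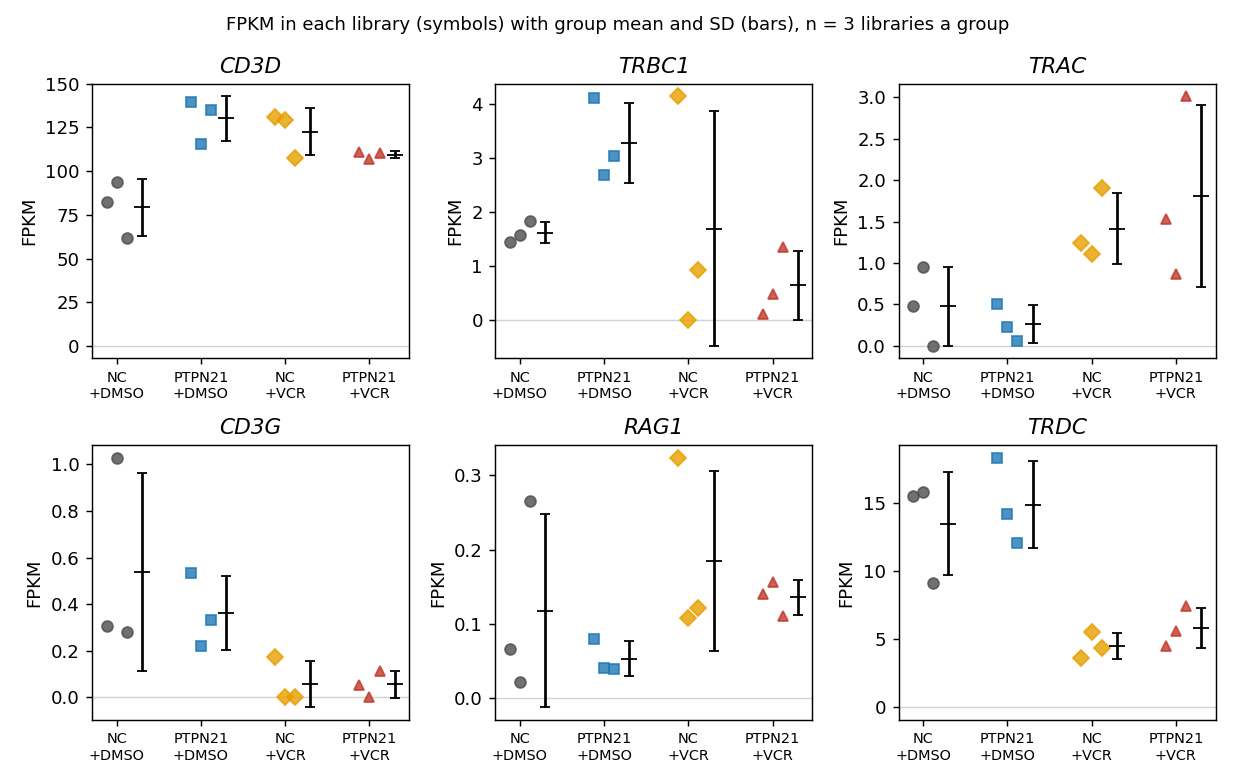
FPKM of CD3D, TRBC1, TRAC, CD3G, RAG1 and TRDC on linear axes, with 1 symbol per library and the group mean with its SD beside it (n = 3 libraries). CD3D was lowest in NC+DMSO, TRAC was higher and CD3G and TRDC were lower under VCR in both kinds of cells, and the TRBC1 libraries of NC+VCR were spread from 0 to 4.15 FPKM.

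PTPN21 overexpression without drug was accompanied by a higher CD3D level. The mean was 130.2 ± 12.8 FPKM (SD, n = 3) in PTPN21+DMSO and 79.3 ± 16.2 FPKM (SD, n = 3) in NC+DMSO. The difference was 0.72 ± 0.15 (SE) on the log2 scale, or 0.86 above the median of all genes, with an adjusted p of 0.0235 by limma. CD3D was 1 of the 2 genes tested here, in a comparison that called 6.34% of all genes. The call rested on thin support: over 12 fits that each left out 1 library, the adjusted p rose to 0.0555 without NC+DMSO replicate 1, 0.0675 without NC+DMSO replicate 3, 0.104 without PTPN21+DMSO replicate 1 and 0.0728 without PTPN21+DMSO replicate 3. The direction held in all 22 alternatives, from 0.56 to 0.91. TRBC1 was 3.28 ± 0.744 FPKM in PTPN21+DMSO against 1.61 ± 0.195 FPKM in NC+DMSO (SD, n = 3), a difference of 0.70 ± 0.48 (SE) with an adjusted p of 0.382 by limma. The groups did not overlap for 2 of the 10 genes, CD3D and TRBC1, against 18.1% of the 28170 genes above 0 in a library. In this count and the later ones, only 8 of the 10 genes share that base, as CD247 and DNTT were at 0 throughout.

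Under VCR, no difference between PTPN21 and NC cells passed the test. CD3D was 109.4 ± 1.96 FPKM in PTPN21+VCR and 122.6 ± 13.3 FPKM in NC+VCR (SD, n = 3), a difference of -0.16 ± 0.15 (SE) with an adjusted p of 0.647 by limma. TRBC1 differed by -0.46 ± 0.48 (SE) with an adjusted p of 0.675 by limma, and without NC+VCR replicate 1, the library at 4.15 FPKM, the difference was 0.17. Of the 2 genes 0 passed, also at an unadjusted p under 0.05, in a comparison that called 1.82% of all genes and had 17.1% at that unadjusted p. The groups overlapped or were tied at 0 for all 10 genes, where 12.7% of genes above 0 did not overlap.

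VCR treatment of NC cells was accompanied by a higher CD3D level. CD3D was 122.6 ± 13.3 FPKM in NC+VCR against 79.3 ± 16.2 FPKM in NC+DMSO (SD, n = 3). The difference was 0.64 ± 0.15 (SE), or 1.00 above the median, with an adjusted p of 0.00655 by limma. It passed in all 22 alternatives, at adjusted p from 0.00181 to 0.0392. This was 1 of the 2 genes tested, where the comparison called 36.2% of all genes. TRBC1, at 1.69 ± 2.18 FPKM in NC+VCR (SD, n = 3), differed from NC+DMSO by -0.28 ± 0.48 (SE) on the log2 scale with an adjusted p of 0.667 by limma. The sign of that difference went against the FPKM means, of which NC+DMSO, at 1.61 FPKM, had the lower. The groups did not overlap for 3 of the 10 genes, against 24.7% of genes above 0. These were CD3D and TRAC, higher under VCR, and CD3G, lower. Each had an exact permutation p of 0.1, the value that 3 against 3 libraries without overlap always give.

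VCR treatment of PTPN21 cells gave no call for CD3D. The level was 109.4 ± 1.96 FPKM in PTPN21+VCR against 130.2 ± 12.8 FPKM in PTPN21+DMSO (SD, n = 3), a difference of -0.24 ± 0.15 (SE), or -0.08 relative to the median, with an adjusted p of 0.248 by limma. TRBC1 fell by 1.44 ± 0.48 (SE) on the log2 scale, from 3.28 ± 0.744 to 0.640 ± 0.642 FPKM (SD, n = 3), with an adjusted p of 0.0398 by limma. It was 1 of 2 genes tested, where 28.5% of all genes were called. The TRBC1 call was kept in 10 of 21 alternatives, and its highest adjusted p was 0.136, without PTPN21+VCR replicate 1. The call was also lost without NC+DMSO replicates 1 or 2, at 0.0514 and 0.0503, without PTPN21+DMSO replicates 1, 2 or 3, at 0.117, 0.0691 and 0.0837, and without PTPN21+VCR replicate 2, at 0.0997. The groups did not overlap for 5 of the 10 genes, of which 8 were above 0 in a library, against 28.2% of genes above 0. TRAC and RAG1 were higher and CD3D, TRBC1 and CD3G lower under VCR. Each had an exact permutation p of 0.1, which follows from the lack of overlap and adds nothing to it. For TRAC the fit without the minimum level gave 1.09 ± 0.33 (SE) with an adjusted p of 0.0707 by limma, and 0.75 ± 0.33 (SE) with an adjusted p of 0.191 in NC cells.

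The 2 fitted responses of CD3D to VCR had opposite signs, but the one in PTPN21 cells was not called and became -0.05 with median ratio scaling and -0.09 with quantile normalization. The interaction, the VCR difference in PTPN21 cells minus that in NC cells, was -0.88 ± 0.21 (SE) with an unadjusted p of 0.00128 and an adjusted p of 0.128 by limma, and did not pass. For TRBC1 it was -1.16 ± 0.67 (SE) with an adjusted p of 0.447 by limma. Of the 2 genes 0 passed, 1 at an unadjusted p under 0.05, where 0.129% of all genes were called and 14.0% had that unadjusted p. NC+DMSO and PTPN21+DMSO each enter 2 of these comparisons, as do the VCR groups, so the comparisons are not independent.

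**Figure D5:**
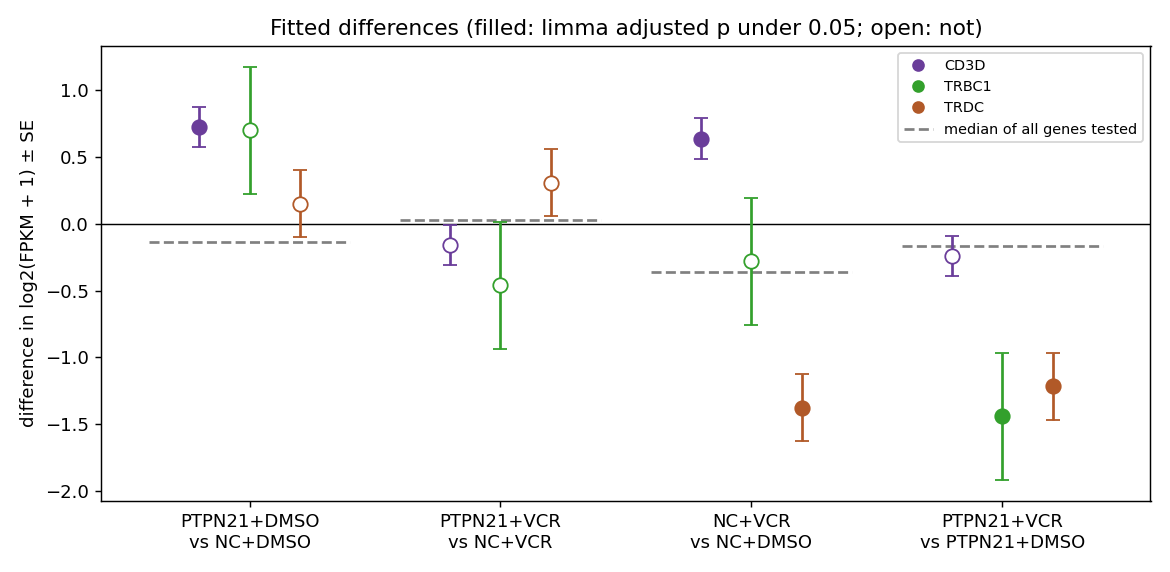
Fitted difference in log2(FPKM + 1) with its SE for CD3D, TRBC1 and TRDC in 4 comparisons of 3 against 3 libraries; filled symbols have a limma adjusted p under 0.05 and the dashed line is the median of the 11591 genes tested. CD3D was 0.72 and 0.64 in the 2 comparisons against NC+DMSO, TRBC1 was -1.44 in PTPN21+VCR against PTPN21+DMSO, its 1 filled symbol, and TRDC had filled symbols below 0 under VCR in both kinds of cells.

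The delta constant region TRDC fell under VCR in both kinds of cells. Its values were 15.5, 15.8 and 9.14 FPKM in NC+DMSO, 18.3, 14.1 and 12.1 FPKM in PTPN21+DMSO, 3.64, 5.49 and 4.33 FPKM in NC+VCR and 4.51, 5.58 and 7.41 FPKM in PTPN21+VCR. All 6 VCR libraries were below all 6 DMSO libraries. The difference was -1.37 ± 0.25 (SE, adjusted p = 0.00157, limma) in NC cells and -1.22 ± 0.25 (SE, adjusted p = 0.00379, limma) in PTPN21 cells, and both passed in all 22 alternatives. TRAC had higher group means under VCR, at 1.42 FPKM in NC and 1.81 FPKM in PTPN21 cells, than with DMSO, at 0.477 and 0.265 FPKM.

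Signalling and repair genes of the wider lists were called mostly in the VCR comparisons. Of 17 proximal signalling genes tested in NC cells, 6 fell and the other 11 were not called, with a median of -0.27 against -0.36 over all genes, of which 36.2% were called. The share of the list that was called was thus close to that of all genes. The adaptor GRAP2 changed by -1.73 on the log2 scale (adjusted p = 6.23e-05, limma), and the adaptor FYB1, the kinase CSK and the phospholipase PLCG1 by -1.73, -1.67 and -1.35. In PTPN21 cells, where 28.5% of all genes were called, 4 fell, GRAP2, PTPN6 and FYB1 among them, and 1 rose, PTPRC, at 1.26 ± 0.22 (SE, adjusted p = 0.00161, limma). Without drug, where 6.34% of all genes were called, PTPRC differed by -0.88 in PTPN21 cells (adjusted p = 0.0419, limma). Of 11 recombination partners, 2 rose and 3 fell with VCR in NC cells, with a median of -0.40: HMGB2, a DNA-bending cofactor of the recombinase, rose by 0.61, while PRKDC, XRCC5 and POLL, which act in end joining, fell, by differences of -1.45, -0.47 and -0.75. In PTPN21 cells XRCC4, a partner of DNA ligase IV, rose by 0.68 and POLL fell by 0.83. PRKDC also fell by 1.10 in PTPN21+DMSO against NC+DMSO (adjusted p = 0.038, limma).

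Regulators that act at the receptor, CD3 and RAG genes were called in both VCR comparisons. Of 16 tested in NC cells, 9 fell and 1 rose, with a median of -0.83 against -0.36 over all genes, of which 36.2% were called, 3275 lower and 917 higher, or 1361 lower and 1717 higher with median ratio scaling. LYL1, TAL1 and RUNX1 fell, by differences of -1.34, -1.22 and -1.46, and ETS2 rose by 1.00. In PTPN21 cells 7 fell and 1 rose, with a median of -0.49 against -0.17 over all genes, of which 28.5% were called, 2239 lower and 1069 higher, or 1449 lower and 1584 higher with median ratio scaling. Here LYL1, TAL1 and LMO2 fell, by differences of -1.95, -1.42 and -1.72, and ETS2 rose by 1.09. Without drug, 4 of 16 were called in PTPN21 cells, in a comparison that called 6.34% of all genes. MYB, ELF1 and TCF12 fell, by differences of -0.96, -1.78 and -1.24 (adjusted p = 0.0162, 0.0433 and 0.0463, limma). LYL1 rose by 0.66 (adjusted p = 0.0468, limma). Across the lists beside the 10 genes, this comparison gave 6 lower and 4 higher calls, or 1 and 4 with median ratio scaling. LYL1, TAL1 and LMO2 are also known from erythroid cells. Over all lists beside the 10 genes, 36 of the 41 calls in NC cells and 27 of the 31 in PTPN21 cells were lower under VCR, and with median ratio scaling these counts were 19 of 26 and 20 of 26. The 36 and 27 lower calls include 11 and 10 mitochondrially encoded genes and 5 and 4 erythroid markers.

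Markers of other lineages also differed between the groups. All 5 erythroid markers tested fell with VCR in NC cells and 4 of 5 in PTPN21 cells, and 2 of 5, HBA1 and HBG1, rose by 0.82 and 0.88 in PTPN21+DMSO against NC+DMSO. Over all genes these comparisons called 36.2%, 28.5% and 6.34%, with medians of -0.36, -0.17 and -0.14. Between PTPN21+VCR and NC+VCR, where 1.82% of all genes were called, 1 of the 5 erythroid markers was called. This was ALAS2, the first enzyme of erythroid heme synthesis, which was higher by 0.79 in PTPN21+VCR (adjusted p = 0.0424, limma). The 3 calls of the lists beside the 10 genes in this comparison became 1 without the trend and with the replicate block. The summed erythroid level was 435 to 621 FPKM in NC+DMSO, 785 to 1037 in PTPN21+DMSO, 285 to 330 in NC+VCR and 303 to 421 in PTPN21+VCR. HBB reached 1.66 FPKM in 1 NC+VCR library. SPI1, a myeloid factor, rose by 1.69 with VCR in NC cells, by 0.60 in PTPN21 cells and by 0.76 with PTPN21 without drug, and CD33 fell by 0.57 with VCR in NC cells. NKG7 rose by 0.98 there, from 0.558 to 2.09 FPKM. Mitochondrially encoded genes fell with VCR, 11 of 13 in NC and 10 of 13 in PTPN21 cells, with medians of -0.77 and -0.54 against -0.36 and -0.17 over all genes. The part of these shifts, and of the greater depth of the PTPN21 libraries, in the levels of CD3D and TRBC1 was not tested.

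Genes whose pattern over the 12 libraries was most like that of the receptor genes were found by Pearson correlation of log2(FPKM + 1). With the mean of CD3D, CD3E, CD3G and CD247, the 3 highest were RPS26P47, a ribosomal protein pseudogene (r = 0.865), SREK1IP1 (r = 0.860) and IFTAP (r = 0.856). CD3D set the level of that mean, but CD3G, at 0 to 1.03 FPKM, also varied on this scale and shaped the pattern. The 3 matching genes had their lowest group mean in PTPN21+VCR, whereas CD3D had its lowest in NC+DMSO. IFTAP, with a mean of 112.0 FPKM in PTPN21+DMSO and 70.1 to 79.1 FPKM in the other groups, is named C11orf74 in GENCODE and is the gene 1337 bases beyond RAG1. With RAG1, the 3 highest were MTCL1 (r = 0.899), TTC3 (r = 0.892) and RSRP1 (r = 0.882). DNTT was constant and gave none. The 12 points share 4 groups and the depth difference between them, and these values describe the libraries only.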

How the data were processed

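RNA-seq was made from 12 libraries labelled Jurkat. The authors deposited 1 table of FPKM values with human Ensembl identifiers, and its values were used as deposited. Per the submitters' processing notes, fastp and Bowtie2 were used, and the build listed there is the mouse build mm10, which goes against the human identifiers. The quantification tool, its annotation and its use of strand were not given in the sources used here. Samples were grouped by their GEO titles, genotype and treatment. The 10 genes and all lists were chosen with earlier results of these data known.

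limma 3.58.1 in R 4.3.3 was fitted to log2(FPKM + 1), a pseudocount of 1, for the 11591 genes with a mean of at least 1 FPKM, as 4 group means with an intensity trend, giving 5 comparisons. p-values were adjusted by Benjamini-Hochberg, two-sided, with 0.05 as the threshold. The fit was tested on simulated data. Exact permutation tests were two-sided. Gene positions came from GENCODE release 29, which held 96.3% of the identifiers. All 10 genes are named, together with up to 4 genes a list and comparison with the lowest adjusted p, and the 3 most alike genes of each pattern. No libraries were identical, and replicates correlated at 0.939 to 0.976. Other pseudocounts, minimum levels, scalings, moderation, groups in the fit, a replicate block and the removal of each library were tried. Same-numbered replicates did not deviate together, as 18 correlations lay between -0.145 and 0.058.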

Additional observations from a re-analysis of the deposited data

Results flagged for a closer look

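CD3D was singled out because its libraries moved in opposite directions with VCR in the 2 kinds of cells, although the difference in PTPN21 cells, -0.24 ± 0.15 (SE), was not called (adjusted p = 0.248, limma) and became -0.05 with median ratio scaling and -0.09 with quantile normalization. All 3 NC+VCR libraries, at 107.3 to 131.2 FPKM, were above all 3 NC+DMSO libraries, at 61.8 to 93.8 FPKM. All 3 PTPN21+VCR libraries, at 107.2 to 110.9 FPKM, were below all 3 PTPN21+DMSO libraries, at 115.7 to 139.7 FPKM. The difference between the responses was -0.881 on the log2(FPKM + 1) scale and was tested as an interaction, with an adjusted p of 0.128 by limma and 0.0676 to 0.283 over 21 alternatives, so it did not pass in any of them.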

How the results depend on the processing

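The counts of receptor and recombination genes passing were 0, 1, 1, 1 and 0 for PTPN21+VCR against NC+VCR, PTPN21+DMSO against NC+DMSO, NC+VCR against NC+DMSO, PTPN21+VCR against PTPN21+DMSO and the interaction. The CD3D call in PTPN21+DMSO against NC+DMSO was lost, a count of 0, with no minimum level, without the trend and with only the 2 groups compared, at adjusted p of 0.0609, 0.0518 and 0.0835 by limma. The TRBC1 call in PTPN21+VCR against PTPN21+DMSO was lost, a count of 0, with a pseudocount of 0.1, no minimum level, median ratio scaling and quantile normalization, and with a minimum of 5 FPKM, which leaves TRBC1 out of the fit. Leaving out 1 library gave 0 to 1 for each of these 2 counts, 1 to 1 for NC+VCR against NC+DMSO and 0 to 0 for the other comparisons. The cause of the losses was not tested. With no minimum level more genes were adjusted for, and the unadjusted p by limma rose too. It went from 0.000394 to 0.000640 for this CD3D difference and from 0.0103 to 0.0198 for this TRBC1 difference.

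For the genes of the other lists, 3 passed in PTPN21+VCR against NC+VCR, and 5 with a minimum of 5 FPKM, 1 without the trend and 1 with the replicate block. In PTPN21+DMSO against NC+DMSO, 10 passed, and 1 with no minimum level, 5 with median ratio scaling, 3 without the trend, 0 with only the 2 groups and 3 with the replicate block. In NC+VCR against NC+DMSO 41 passed, and 26 with median ratio scaling. In PTPN21+VCR against PTPN21+DMSO 31 passed. In the interaction 0 passed, and 1 with TPM scaling and 1 with quantile normalization. Leaving out 1 library gave 1 to 5, 0 to 12, 34 to 41, 22 to 35 and 0 to 2. Same-numbered replicates did not deviate together, which does not exclude a shared culture or day. With the replicate block the receptor and recombination gene counts were 0, 1, 1, 1 and 0. Over all genes, 211, 735, 4192, 3308 and 15 passed, with lowest and highest counts among the alternatives that kept all libraries of 72 and 344, 40 and 1062, 2674 and 4553, 2558 and 4157, and 8 and 22. The share of calls that were higher in NC+VCR was 21.9%, and 55.8% with median ratio scaling, in PTPN21+VCR against PTPN21+DMSO 32.3% and 52.2%, and in PTPN21+DMSO against NC+DMSO 41.8% and 73.6%.

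The number of the 10 genes with a mean of at least 1 was 2, and 3 with TPM or median ratio scaling. The CD3D mean was 110.4 FPKM and became 185.0 in TPM, a change of unit. TRBC1 turned direction in PTPN21+VCR against NC+VCR, to 0.17 without NC+VCR replicate 1, where leaving out 1 library gave -1.01 to 0.17. It also turned in NC+VCR against NC+DMSO, to 0.089 with quantile normalization and 0.27 without NC+VCR replicate 2, with -0.91 to 0.27 on leaving out 1 library. TRDC turned direction in PTPN21+DMSO against NC+DMSO, to -0.089 without NC+DMSO replicate 3 and close to 0 without PTPN21+DMSO replicate 1, in a range of -0.089 to 0.28. In the interaction it became -0.017 with median ratio scaling and -0.048 with quantile normalization, and leaving out 1 library gave -0.0021 to 0.40. None of these TRBC1 and TRDC differences passed in any fit, and no other gene named by its fitted difference changed direction under the alternatives listed. TRBC1 and TRAC were low, with means of 1.81 and 0.991 FPKM. On the depth estimate, 1 read was worth 0.0276 to 0.0457 FPKM for TRBC1 and 0.0215 to 0.0356 FPKM for TRAC. Few reads thus stood behind their lowest values above 0, such as 0.0958 FPKM for TRBC1 and 0.0643 FPKM for TRAC. The cause of the spread between their libraries was not tested.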
